A study of Mus musculus with 24 samples.

Results

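The genes described here act in the DNA damage checkpoint and in DNA repair. They were chosen by name, but with earlier results of these data known, so their counts beside all probe sets are descriptive. The 36 genes cover homologous recombination, end recognition and resection, the Fanconi pathway, mismatch repair, end joining, single-strand break repair and the checkpoint kinases. Every probe set annotated with 1 of these symbols and no second gene was taken. This gave 34 of the 36 genes, of 18193 genes named on the arrays, and 78 of 45137 probe sets. Of these 34 genes, 15 were on the MA array design alone, 6 on the MB design alone and 13 on both. Xrcc2 and Rbbp8 were not analysed here.

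A double-strand break is found by sensor complexes, and the kinases Atm and Atr pass the signal to Chek2 and Chek1, which hold the cell cycle. In cells with a copied chromosome the break can be resected and mended by homologous recombination, while the Ku proteins join ends directly at any stage. Genes of recombination, of the Fanconi pathway for crosslinked DNA and of mismatch repair are known to be transcribed most in dividing cells, whereas myoblasts leave the cell cycle for good when they become myotubes.

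The cells were C2C12, an established mouse myoblast line that differentiates when its medium is changed. Per the labels there were 4 groups: cells with a short hairpin RNA (shRNA) against p68 in differentiation medium (DM), cells with the empty pSuperR vector in DM, cells with the p68 shRNA in growth medium (GM), and cells with the empty vector in GM. The p68 protein is the RNA helicase encoded by Ddx5, and the stated aim was to profile differentiating muscle cells in which p68 and its relative p72 are interfered with. All groups were transduced cells of this 1 line; the hairpin's sequence, the media and the time in DM are not given here. Each group had 3 MA and 3 MB arrays, 24 arrays in all, whose biotin-labelled total RNA gave 1 linear signal per probe set. The labels do not state whether the arrays of a group came from separate cultures, so the p-values measure the spread between arrays, which may be technical. A signal averages over a whole culture, and fewer cells holding a transcript cannot be told apart from less transcript in each cell.

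Changes are differences of log2(signal + 15) with their standard error, from limma over the 12 arrays of a design; with the added 15, changes at low signal are understated. A change passed where the p-value, adjusted over all tested probe sets of that design and comparison, was under 0.05. Probe sets were tested where the signal reached 30 in at least 3 arrays, which 35 of the 48 member probe sets on MA did (25 of 28 genes) and 28 of the 30 on MB (18 of 19 genes). Bard1, the partner of Brca1, stayed under the filter, with signals of 1.4 to 4.1 in all MA arrays. Of the tested member probe sets, 18 on MA and 13 on MB reached 30 in all arrays of all 4 groups; the others could enter through their higher groups, so counts over all member probe sets without this filter are given as well, and by pathway where they differ.

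The spread between arrays of a group differed between the designs, for a reason that was not tested. The median residual SD was 0.214 on MA and 0.523 on MB, and the standard errors of the member changes were 0.12 to 0.32 on MA and 0.22 to 0.63 on MB. On MA, vector replicate 3 in DM stood farthest from its group (mean correlation 0.951), and counts without it are given beside each result that it moved. Ddx5 itself had 6 tested MA probe sets, of which 1 passed in DM and 0 in GM (lowest adjusted limma p there 0.135). That 1, the brightest, gave signals of 373.1, 302.5 and 302.5 with the shRNA in DM, against 673.5, 541 and 407.9 with the vector (-0.68 ± 0.15, adjusted p = 0.00677). In GM it gave 351.4, 388.3 and 376.5 with the shRNA, against 483.3, 420.4 and 489.2 with the vector (-0.31 ± 0.15, adjusted p = 0.287). The arrays of the constructs did not overlap in either medium at this probe set. The other 5 changed by -0.48 to 0.01 in DM, with adjusted p of 0.0869 to 0.999, and their arrays overlapped there. All 8 markers of myoblasts passed the filter on MA. Of other cell types, 2 of 4 adipocyte, 4 of 6 macrophage, 1 of 4 endothelial and 1 of 4 epithelial markers passed it too, among them Cebpa (mean 205), Csf1r (68.4), Kdr (45.8) and Krt8 (42.2). Adipoq, Ptprc, Epcam and Pecam1 stayed under it on MA, with highest signals of 9.3, 10, 3.4 and 24.3. An MB probe set of Epcam averaged 905, but signals of the designs, which were scaled apart, cannot be compared directly. A probe set of Ddb1 present on both averaged 2060 on MA and 12500 on MB. The part of these other cell types in the results was not tested. Of 5 smooth muscle markers 4 passed the filter on MA. Acta2, which immature muscle cells also express, averaged 8180, Tagln 750, Smtn 383 and Cnn1 36.1, while Myh11 stayed under it.

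The sequences just upstream of some members show what their promoters hold. E2F factors, which activate genes at the start of DNA replication, bind sites such as TTTCCCGC. The RefSeq promoter table of build GRCm38.p6 held 28 of the 36 members in 29 windows. The 250 bases before each start were searched on both strands for TTTGGCGC, TTTCCCGC, TTTGCCGC and TTTCGCGC, and for TTTGAA, the cell cycle genes homology region. One of the 4 E2F letters was present in 5 of 29 member windows (17.2%), against 611 of 32851 windows of all genes (1.86%). All 5 were TTTCCCGC, in Bard1, Brca2, Fancg, Xrcc6 and Chek2. TTTGAA was in 1 member window (3.45%), that of Bard1, against 16% of all windows, and overlapped no E2F match. These matches are a description of letters and were not tested as binding sites. The following stretches of 80 bases run 5′ to 3′ on the strand of the gene, with the match in capitals; on the opposite strand TTTCCCGC reads GCGGGAAA.
Fancg, chr4:43010310-43010389, minus strand: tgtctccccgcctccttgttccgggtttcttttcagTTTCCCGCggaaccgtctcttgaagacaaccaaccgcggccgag
Xrcc6, chr15:82016287-82016366, plus strand: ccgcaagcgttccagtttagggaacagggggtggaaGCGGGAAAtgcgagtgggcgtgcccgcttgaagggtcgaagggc
Brca2, chr5:150522417-150522496, plus strand: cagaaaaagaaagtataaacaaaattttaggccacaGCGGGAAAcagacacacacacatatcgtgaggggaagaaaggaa
Chek2, chr5:110839795-110839874, plus strand: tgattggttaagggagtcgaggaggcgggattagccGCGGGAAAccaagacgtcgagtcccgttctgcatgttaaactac
Bard1, chr1:71103138-71103217, minus strand: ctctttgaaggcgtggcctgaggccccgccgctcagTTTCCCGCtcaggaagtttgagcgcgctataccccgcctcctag
Of the genes with a match, Bard1 was not tested for change. The others, Fancg, Xrcc6, Brca2 and Chek2, were lower in DM in vector cells on MA in the results that follow. So were 16 of all 25 tested genes, these 4 included, and a link between match and change was not tested. The next stretches are the 80 bases before the starts of 4 genes that were also lower in that comparison. They hold none of the 4 E2F letters.
Rad54l, chr4:116123691-116123770, minus strand: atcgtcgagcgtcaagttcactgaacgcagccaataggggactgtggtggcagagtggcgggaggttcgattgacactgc
Rad51ap1, chr6:126939588-126939667, minus strand: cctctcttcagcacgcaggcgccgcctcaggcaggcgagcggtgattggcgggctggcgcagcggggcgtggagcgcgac
Brca1, chr11:101551956-101552035, minus strand: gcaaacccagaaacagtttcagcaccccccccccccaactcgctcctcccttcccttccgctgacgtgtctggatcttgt
Msh6, chr17:87974970-87975049, plus strand: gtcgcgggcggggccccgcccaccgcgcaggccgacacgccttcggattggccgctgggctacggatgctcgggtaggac

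In vector cells on MA, at least 1 member of every pathway was lower in DM than in GM. By the brightest probe set of each gene, homologous recombination, resection and mismatch repair held the largest changes: Rad54l was 3.88-fold, Brca1 3.11-fold, Exo1 2.85-fold and Msh6 2.51-fold lower in DM than in GM on the log2(signal + 15) scale. Of the 35 tested member probe sets, 20 were lower and 1 was higher, against 25.4% lower and 23.9% higher among all 14367 tested probe sets. The members' median change was -0.53, against 0.01 for all tested. Without the filter 20 of all 48 were lower and 1 higher, against 15.7% and 15.2% of all 22626 probe sets. With each gene given by its brightest tested probe set, 16 of 25 genes were lower and 0 were higher. Leaving out single arrays gave 15 to 22 lower probe sets, 22 of them without vector replicate 3 in DM.

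In homologous recombination 5 of 8 probe sets were lower (median -0.95), and 7 of 14 without the filter. Rad54l, a motor protein that acts on DNA during strand exchange, had signals of 16.9, 23.2 and 10.7 in DM, against 102.1, 104.6 and 115.4 in GM (-1.96 ± 0.19, adjusted p = 9.66e-07). Every DM array lay far below every GM array. Rad51ap1, which promotes strand pairing, had 34.5, 33 and 27.8 in DM and 121.2, 96.1 and 78.5 in GM at its brightest probe set (-1.27 ± 0.17, adjusted p = 1.87e-05). A second probe set of Rad51ap1 had 24, 21.7 and 4.2 in DM, against 123, 88.7 and 118.4 in GM (-2.04 ± 0.25, adjusted p = 8.58e-06). Neither probe set overlapped between the media. The dimmest tested one did not overlap either, but its change of -0.28 ± 0.18 did not pass (adjusted p = 0.215). Brca1, the ubiquitin ligase that directs breaks to recombination, had 11, 13.8 and 12.2 in DM and 75, 54.2 and 83.3 in GM (-1.64 ± 0.18, adjusted p = 2.96e-06). Its DM arrays all lay under the added 15, so this change is a low estimate. Another Brca1 probe set, with 28.7 to 47 in DM and 35.6 to 42.5 in GM, overlapped and did not pass (-0.06 ± 0.21, adjusted p = 0.854). Brca2, which acts at resected ends, was lower as well (-0.64 ± 0.21, adjusted p = 0.0186). That call was lost without vector replicate 2 in DM or vector replicate 4 in GM. Blm, a helicase that dissolves joined strands, overlapped between the media and did not pass (-0.26 ± 0.24, adjusted p = 0.39).

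Among the genes of end recognition and resection 4 of 6 probe sets were lower (median -0.42), and 2 of the 6 in the fit without the filter. Exo1, the exonuclease that cuts back one strand at a break, had 26.1, 22.6 and 27.2 in DM, against 104, 101 and 94.2 in GM (-1.51 ± 0.14, adjusted p = 6.37e-07). The DM arrays of Exo1 lay close together and well below those in GM. The dimmer Exo1 probe set was lower by a call that was lost in 14 of 20 other settings (adjusted p = 0.0451). Of the complex that first binds broken ends, the nuclease Mre11a was lower (-0.87 ± 0.17, adjusted p = 0.000521), with 47.6 to 55.5 in DM and 97.4 to 110 in GM. Rad50, its structural subunit, was lower at its brighter probe set (-0.35 ± 0.13, adjusted p = 0.0337), a call that was lost in 7 of 21 other settings, and the dimmer one changed by -0.08 without passing. Nbn, its signalling subunit, had 27 to 35.3 in DM and 28.2 to 35.8 in GM and did not pass (-0.07 ± 0.19, adjusted p = 0.786).

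In the Fanconi pathway 3 of 7 probe sets were lower and 1 was higher (median -0.34), and 2 of 10 were lower and 1 higher without the filter. Fanca, a subunit of the core complex, had 46.2, 55.1 and 73.2 in DM, against 130.5, 131.4 and 125 in GM (-0.99 ± 0.16, adjusted p = 0.000122). Its DM arrays spread more widely than its GM arrays but did not reach them. Fancg, another core subunit, was lower at both probe sets (-0.68 ± 0.25, adjusted p = 0.033, and -1.07 ± 0.30, adjusted p = 0.00804). The first call was lost in 5 of 21 other settings, and at the second probe set the DM arrays (6.9, 6.4 and 42.3) overlapped the GM arrays (41.6 to 52.8). The probe sets of Fancc differed in sign, and the higher one was the only member probe set to pass as higher here. The dimmer one had 55.8, 76.8 and 69.7 in DM, against 41, 54.4 and 23.4 in GM (0.63 ± 0.21, adjusted p = 0.0217), and the brighter one changed by -0.34 ± 0.18 (adjusted p = 0.134). The higher call was lost without vector replicate 2 in DM or vector replicate 4 in GM. Fanci, which is ubiquitinated together with Fancd2 (-0.31 ± 0.17, adjusted p = 0.148), and the ubiquitin ligase Fancl (-0.32 ± 0.16, adjusted p = 0.121) did not pass.

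Both tested genes of mismatch repair were lower. Msh6, which recognises mispaired bases, had 46, 43 and 47.4 in DM, against 141.6, 125.3 and 144.6 in GM (-1.33 ± 0.12, adjusted p = 4.46e-07). The spread within each medium was small beside the gap between them. Pms2, which nicks the strand to be replaced, had 37.9 to 63.6 in DM and 77.3 to 111 in GM (-0.84 ± 0.19, adjusted p = 0.00169).

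In end joining and single-strand break repair 5 of 9 probe sets were lower (median -0.53). Xrcc1, the scaffold on which single-strand breaks are mended, had 137.5, 133.8 and 147.8 in DM, against 262.5, 303 and 257 in GM (-0.90 ± 0.14, adjusted p = 8.18e-05), with no overlap. Parp1, which senses nicks and marks them with poly(ADP-ribose), was lower at the brightest of its 3 probe sets (-0.53 ± 0.14, adjusted p = 0.0062). At a dimmer one it changed by -1.19 ± 0.18 (adjusted p = 8.45e-05), and at the last it did not pass (-0.31 ± 0.27, adjusted p = 0.376). The Ku genes Xrcc5 (-0.69 ± 0.20, adjusted p = 0.00859) and Xrcc6 (-0.61 ± 0.13, adjusted p = 0.000941), whose products cap broken ends, were lower. Their kinase partner Prkdc changed by 0.03 ± 0.32 at signals of 13.7 to 33.1 in DM and 17.9 to 28.7 in GM (adjusted p = 0.954). Trp53bp1, which shields ends from resection, had 163.8 to 227.8 in DM and 182.4 to 205.2 in GM and did not pass (0.05 ± 0.13, adjusted p = 0.781).

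Of the checkpoint kinases 1 of 3 tested probe sets was lower (median -0.27), and 2 of 7 without the filter. Chek2 had 36, 34.9 and 74.7 in DM, against 85.8, 83.3 and 70.1 in GM (-0.63 ± 0.23, adjusted p = 0.0339). The third DM array lay above the lowest GM array, and the call was lost in 7 of 21 other settings. Atm had 34.9 to 44.5 in DM and 33.3 to 49.1 in GM (-0.05 ± 0.20, adjusted p = 0.851), and Atr 14.5 to 39.1 in DM and 31 to 41 in GM (-0.27 ± 0.27, adjusted p = 0.43). The 4 MA probe sets of Chek1, the effector kinase of Atr, stayed under the filter. Without the filter 2 of these were lower in DM (-1.04, adjusted p = 0.000507, and -0.90, adjusted p = 0.0162), at signals of 0.8 to 5.6 and 3.5 to 15.9 in DM vector cells and 18.2 to 24.8 and 19.9 to 34.3 in GM vector cells.

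**Figure D1:**
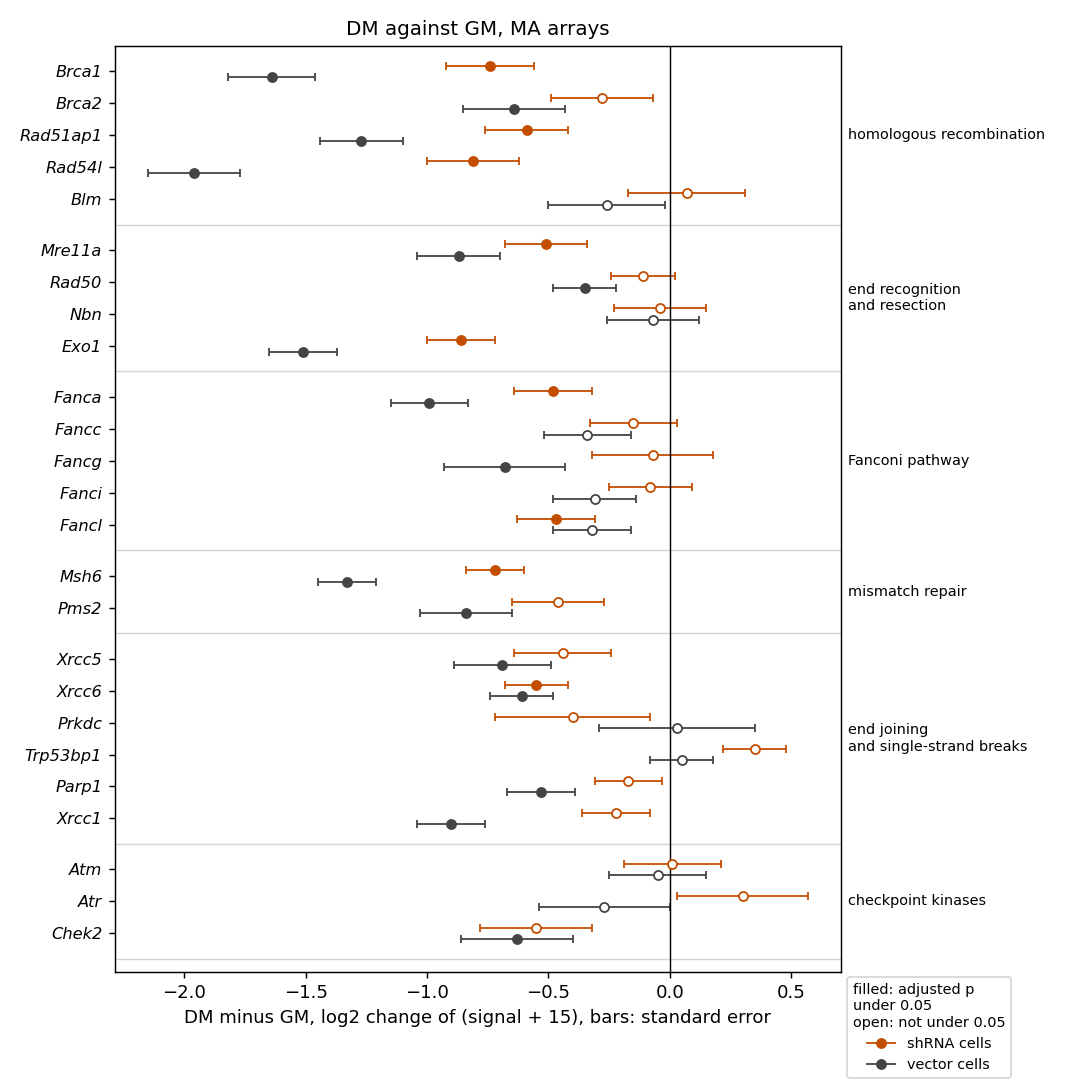
Change between DM and GM on MA for the 25 tested genes, as log2(signal + 15) in DM minus GM (horizontal axis), by pathway; bars are standard errors, shRNA cells stand above vector cells and filled points passed. In vector cells (dark) 16 genes are filled and lower, and in shRNA cells (orange) 9.

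With the p68 shRNA, 9 of 25 genes were lower in DM than in GM and 0 were higher. By probe set 11 of 35 were lower, against 17.5% of all tested (16.3% were higher), with a median of -0.34, against 0 for all tested. Without the filter 7 of all 48 were lower and 0 higher, against 10.5% and 9.53% of all probe sets. By pathway 4 of 8 probe sets were lower in recombination, 2 of 6 in resection, 2 of 7 in the Fanconi pathway, 1 of 2 in mismatch repair, 2 of 9 in end joining and single-strand breaks, and 0 of 3 among the checkpoint kinases. Without the filter these were 3 of 14, 1 of 6, 0 of 10, 1 of 2, 2 of 9 and 0 of 7. Chek2 gave the lowest adjusted limma p of those kinases, 0.0811, and was the 1 kinase with an unadjusted p under 0.05. The count was 6 without shRNA replicate 2 in GM, 7 without shRNA replicate 4 in GM and 15 without vector replicate 3 in DM, where 1 probe set was higher as well.

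Of these 9 genes, 8 were among the 16 that were lower in vector cells. Exo1 had 50.9, 39.8 and 45.7 in DM, against 103.7, 85.9 and 95 in GM (-0.86 ± 0.14, adjusted p = 0.000314). Rad54l had 63.2, 44.5 and 32.5 in DM, against 90.5, 90.2 and 92.9 in GM (-0.81 ± 0.19, adjusted p = 0.00468). Neither gene overlapped between the media. Brca1 had 30, 30.9 and 21.1 in DM and 58.6, 56 and 52 in GM (-0.74 ± 0.18, adjusted p = 0.00535). Msh6 had 76.3, 76.2 and 79.1 in DM and 143.2, 138.3 and 130.7 in GM (-0.72 ± 0.12, adjusted p = 0.000353). In both genes the media stayed apart. Rad51ap1 was lower at both of its brighter probe sets (-0.59 ± 0.17, adjusted p = 0.0138, and -0.77 ± 0.25, adjusted p = 0.0282), as were Fanca (-0.48 ± 0.16, adjusted p = 0.0321) and Mre11a (-0.51 ± 0.17, adjusted p = 0.0279). The calls of Fanca and Mre11a were each lost in 7 of 21 other settings, that of the second Rad51ap1 probe set in 6 and that of the brightest in 1. Fancl, which had not passed in vector cells, was lower here (-0.47 ± 0.16, adjusted p = 0.0366), and the difference between the constructs did not pass (interaction -0.15 ± 0.23, adjusted p = 0.75). The Fancl call was lost in 6 of 21 other settings. Xrcc6 was lower too (-0.55 ± 0.13, adjusted p = 0.00352; interaction 0.06 ± 0.18, adjusted p = 0.882). Xrcc1 did not pass in shRNA cells: it had 135.8, 163.6 and 203.3 in DM, against 184, 212.5 and 190.4 in GM (-0.22 ± 0.14, adjusted p = 0.249), and these overlapped.

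Within DM, members were higher with the p68 shRNA than with the vector where they passed. This comparison shares its vector arrays with that of the media in vector cells, so the values are not independent of those above. On MA 7 of 35 member probe sets were higher and 0 lower, against 10.7% higher and 6.24% lower of all tested. The members' median was 0.26, against 0.05 for all tested. Without the filter 5 of all 48 were higher, and 0 were lower, against 5.9% and 3.77% of all probe sets; at an unadjusted limma p under 0.05 the tested member probe sets held 9 higher and 0 lower, against 18.3% and 11.1% of all tested. The 7 belonged to 6 genes, 3 of them of homologous recombination. The count was 4 without shRNA replicate 1 in DM and 11 without vector replicate 3 in DM.

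Recombination held 4 of the 7, and 3 of the 5 without the filter, where the Fanconi pathway held 0. Rad54l had 63.2, 44.5 and 32.5 with the shRNA, against 16.9, 23.2 and 10.7 with the vector (0.94 ± 0.19, adjusted p = 0.00372). Rad51ap1 had 76.9, 64.1 and 64.4 with the shRNA, against 34.5, 33 and 27.8 with the vector (0.83 ± 0.17, adjusted p = 0.00315). All shRNA arrays lay above all vector arrays in both genes. The second Rad51ap1 probe set had 72, 51.3 and 47.5 with the shRNA, against 24, 21.7 and 4.2 with the vector (1.24 ± 0.25, adjusted p = 0.00325). Brca1 had 30, 30.9 and 21.1 with the shRNA, against 11, 13.8 and 12.2 with the vector (0.63 ± 0.18, adjusted p = 0.0274). Its arrays did not overlap, but the call was lost in 6 of 20 other settings, among them without shRNA replicate 1 or 2 in DM. The other tested Brca1 probe set changed the other way, overlapped and did not pass (-0.25 ± 0.21, adjusted p = 0.475). Brca2 (0.37 ± 0.21, adjusted p = 0.262) and Blm (0.45 ± 0.24, adjusted p = 0.221) overlapped between the constructs and did not pass.

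One gene in each of 3 other pathways passed. Exo1 had 50.9, 39.8 and 45.7 with the shRNA, against 26.1, 22.6 and 27.2 with the vector (0.58 ± 0.14, adjusted p = 0.0112). Msh6 had 76.3, 76.2 and 79.1 with the shRNA, against 46, 43 and 47.4 with the vector (0.61 ± 0.12, adjusted p = 0.00307). Both were separated by construct, and Exo1 did not pass without shRNA replicate 1 in DM or in the fit of these groups alone. Fanca had 104, 71 and 89.7 with the shRNA, against 46.2, 55.1 and 73.2 with the vector (0.50 ± 0.16, adjusted p = 0.0452). Its highest vector array lay above its lowest shRNA array, and the call was lost in 15 of 21 other settings. Fancg did not pass, although its shRNA arrays (59.2 to 82.8) lay above its vector arrays (28.5 to 52; 0.63 ± 0.25, adjusted p = 0.096). No probe set of end joining, single-strand break repair or the checkpoint kinases passed, with limma changes of -0.27 to 0.42 and 0.10 to 0.21; of these only Xrcc5 had an unadjusted p under 0.05 (0.0484). Xrcc6 had 107.5 to 125.9 with the shRNA and 138.8 to 154 with the vector, without overlap (-0.27 ± 0.13, adjusted p = 0.171).

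**Figure D2:**
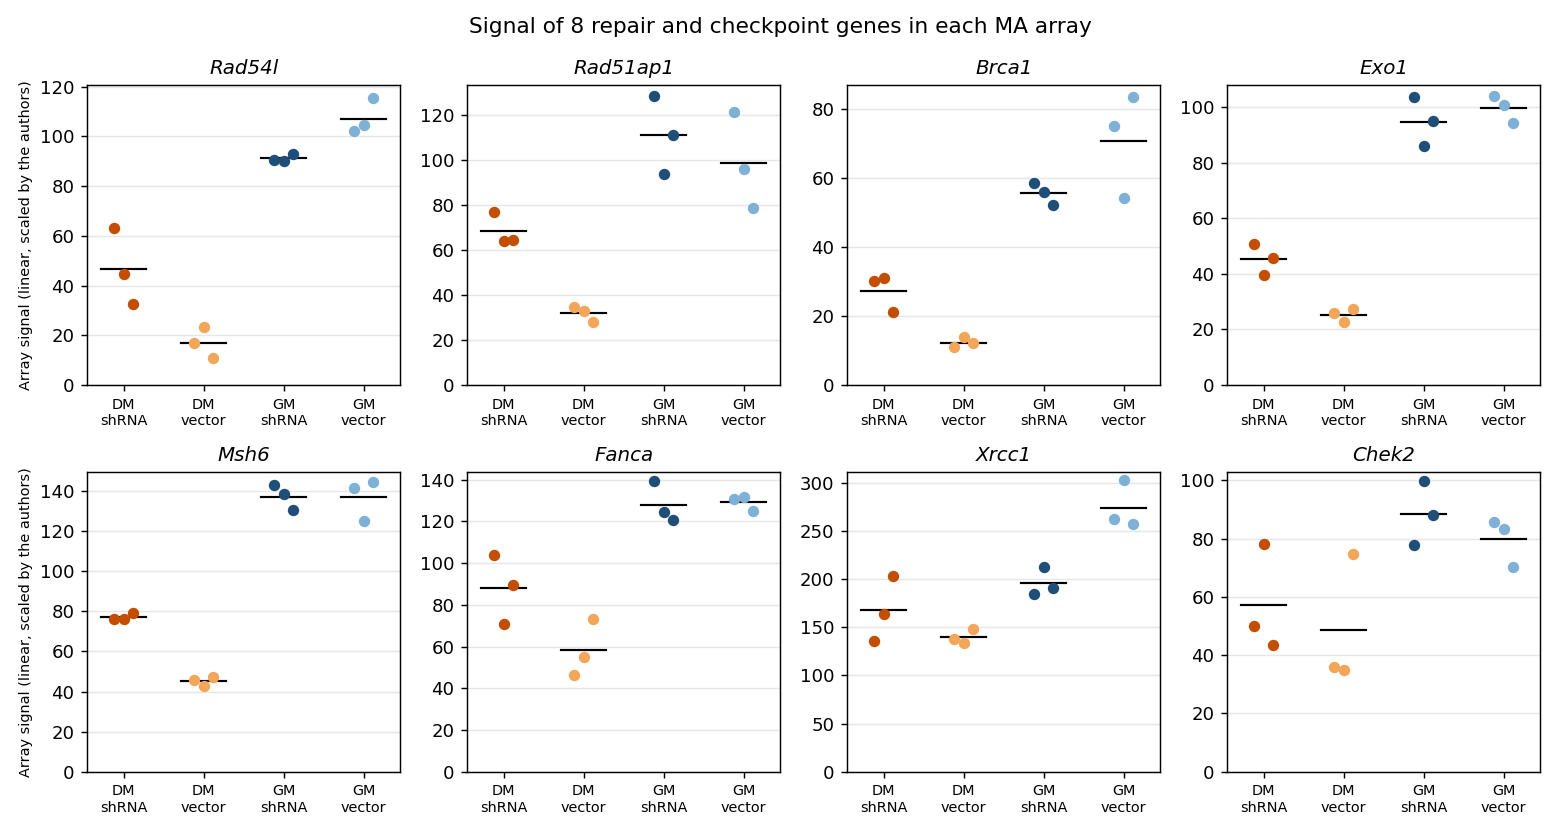
Linear signal of 8 members in each MA array; points are arrays, lines are the means of 3, and the groups are shRNA and vector in DM, then shRNA and vector in GM. The DM vector arrays of Rad54l, Rad51ap1, Brca1, Exo1 and Msh6 lie below all other arrays of the gene, while Fanca, Xrcc1 and Chek2 overlap between the constructs in DM.

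In GM no member passed between shRNA and vector on MA. All 35 changes lay between -0.46 and 0.62 with a median of 0, against 0.04 for all tested, where 3.99% were higher and 2.57% lower. Without the filter 0 of all 48 passed, against 2.07% higher and 1.23% lower. The lowest adjusted limma p was 0.0672, and 4 member probe sets had an unadjusted p under 0.05, 2 higher and 2 lower, against 12.3% and 8.21% of all tested. Xrcc1 was nearest to the threshold, with 184, 212.5 and 190.4 with the shRNA, against 262.5, 303 and 257 with the vector (-0.46 ± 0.14, adjusted p = 0.0672). Fancl had 122.6, 142.6 and 130.5 with the shRNA, against 95, 81.4 and 93.6 with the vector (0.48 ± 0.16, adjusted p = 0.0969). In Xrcc1 the shRNA arrays lay below the vector arrays and in Fancl above them, but neither change passed. The others were the dimmer Fancc probe set (0.62 ± 0.21, adjusted p = 0.0957) and Xrcc6 (-0.33 ± 0.13, adjusted p = 0.144). Msh6 (0.00 ± 0.12, adjusted p = 0.993) and Exo1 (-0.06 ± 0.14, adjusted p = 0.865) overlapped between the constructs. Leaving out 1 array gave 1 passing probe set that was lower without shRNA replicate 1 or 3 in DM, and 1 higher and 1 lower without vector replicate 3 in DM.

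**Figure D3:**
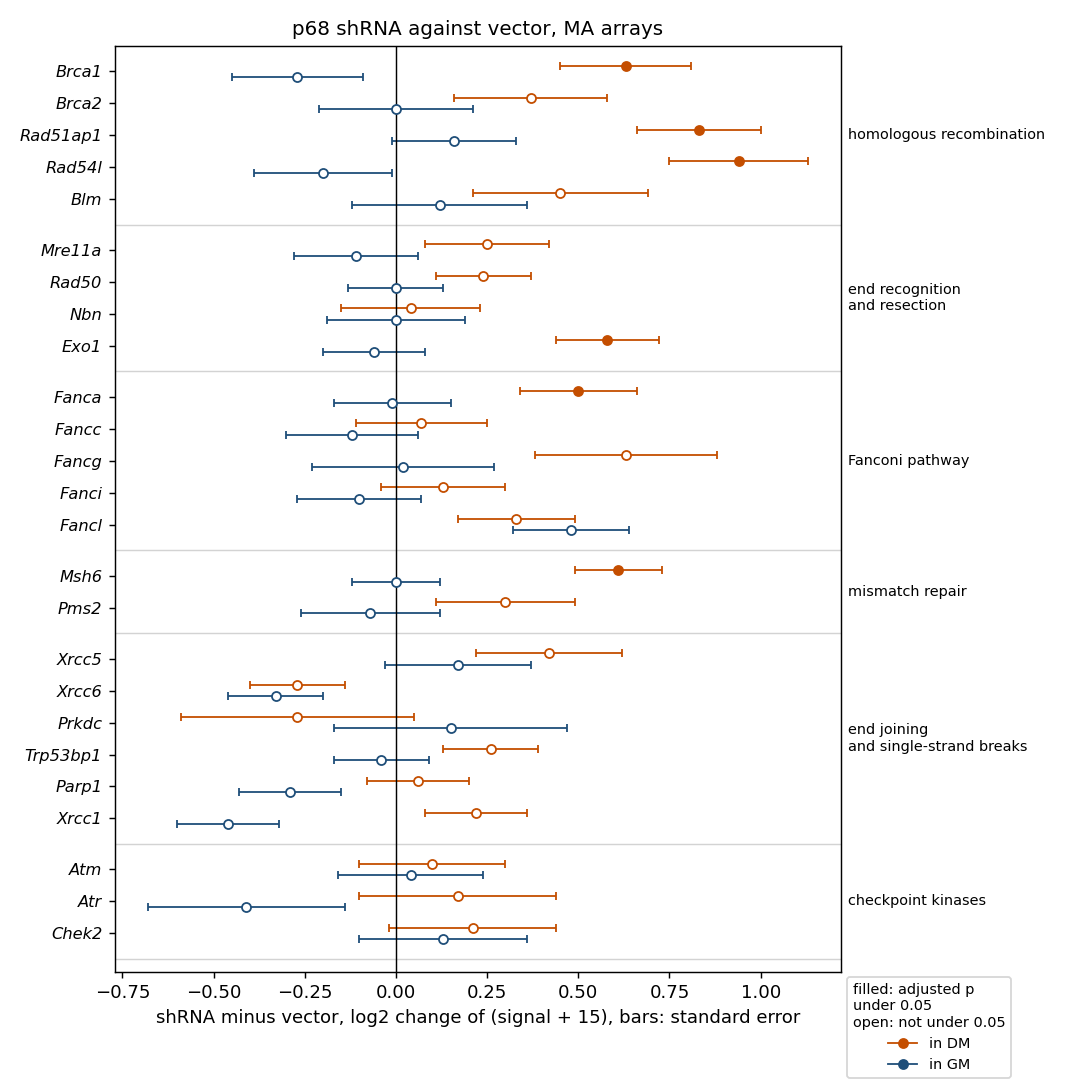
Change between p68 shRNA and vector on MA for the 25 tested genes, as log2(signal + 15) with the shRNA minus that with the vector (horizontal axis), by pathway; bars are standard errors, DM stands above GM and filled points passed. In DM (orange) Brca1, Rad51ap1, Rad54l, Exo1, Fanca and Msh6 are filled and higher, and in GM (blue) no point is filled.

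Whether the shRNA effect differed between the media was tested as the interaction, which is equally the difference of the medium change between the constructs. It passed for 5 of 35 member probe sets on MA, all with a more positive shRNA effect in DM, against 5.48% of all tested in that direction and 4.48% in the other. The members' median was 0.30, against 0.01 for all tested. Without the filter only Rad54l passed among all 48, against 2.79% in that direction and 2.33% in the other. Rad54l differed by 1.14 ± 0.27 (adjusted p = 0.017), since the shRNA changed it by 0.94 in DM and -0.20 in GM, and it passed in all 20 other settings. The second Rad51ap1 probe set differed by 1.27 ± 0.35 (adjusted p = 0.0353) and Brca1 by 0.89 ± 0.26 (adjusted p = 0.0398). Msh6 differed by 0.61 ± 0.17 (adjusted p = 0.0392). These passed in 13 of 20, 7 of 19 and 8 of 20 other settings. Xrcc1 differed by 0.68 ± 0.20 (adjusted p = 0.0422; 7 of 20 other settings), from 0.22 in DM and -0.46 in GM, neither of which passed alone. The brightest probe set of Rad51ap1 (0.68 ± 0.24, adjusted p = 0.0916) and Exo1 (0.65 ± 0.20, adjusted p = 0.0588) did not pass. Nor did the other tested Brca1 probe set, which was negative (-0.29 ± 0.30, adjusted p = 0.625). The count moved with single arrays: it was 8 without vector replicate 3 in DM, and 3 without shRNA replicate 3 or vector replicate 1 in DM. It was 2 without shRNA replicate 1 or vector replicate 2 in DM or shRNA replicate 2 in GM. It was 1 without shRNA replicate 2 in DM, shRNA replicate 3 or 4 in GM, or vector replicate 1 or 4 in GM.

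Genes of cell division passed in these comparisons as well. Of the 12 genes of a proliferation list (Mki67, Top2a, Mcm genes, Pcna, cyclins and Cdk1), 11 were tested on MA. In vector cells all 11 were lower in DM than in GM (median -2.24), and in shRNA cells 10 were (median -0.98). In DM 10 were higher with the shRNA than with the vector (median 1.02), in GM 3 were lower with the shRNA (median -0.33), and 9 passed the interaction. Their summed signal was 4932 to 5142 with the shRNA and 2348 to 2935 with the vector in DM, and 9536 to 10460 with the shRNA and 11750 to 12200 with the vector in GM. Of 8 myotube genes such as Ckm and Myh3, all were higher in DM than in GM in both kinds of cells, and 5 were lower with the shRNA in DM (median -0.72). The part of either list in the changes of repair genes was not tested. Per array, exact permutation of 3 against 3 cannot give a p under 0.1, the value for every pair of groups above that did not overlap.

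The MB arrays, with their larger spread, gave 1 passing member probe set in vector cells. Of 28 tested, 1 was lower and 0 higher in DM, against 5% and 4.21% of all 19303 tested, and 3 were lower at an unadjusted limma p under 0.05, against 10.8% of all tested. Without the filter 1 of 30 was lower as well, but the share of all MB probe sets in that fit is not given here. The passing member was Fancd2, the protein whose ubiquitination is the central step of the Fanconi pathway. In DM it had 236.9, 259 and 146.4, against 415.3, 391.3 and 476.9 in GM (-0.98 ± 0.24, adjusted p = 0.0126), with no overlap. The call was lost without vector replicate 3 in DM or vector replicate 2 in GM, and the MB count was 2 without vector replicate 1 and 3 without vector replicate 2 in DM. Its 3 other probe sets changed by -0.27 ± 0.30, -0.61 ± 0.46 and -0.87 ± 0.43 and did not pass. With the shRNA, Fancd2 had 331.2, 233.7 and 371.4 in DM, against 355.7, 409.1 and 428.7 in GM (-0.36 ± 0.24, adjusted p = 0.572), and these overlapped.

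No member passed on MB in the other comparisons by limma. Without the filter 0 of 30 passed in any of them, and the shares of all MB probe sets in that fit are not given here. In shRNA cells between the media, 1 was higher and 2 were lower at an unadjusted p under 0.05, against 7.36% and 7.73% of all tested (adjusted, 2.27% higher and 2.57% lower). For the shRNA against the vector 1 was higher in DM at an unadjusted p under 0.05, against 5.94% of all tested (adjusted, 0.782% higher and 0.389% lower). In GM 1 was higher, against 3.85% (adjusted, 0.207% and 0.0673%). In the interaction 0 had an unadjusted p under 0.05, against 4.54% higher and 3.92% lower of all tested (adjusted, 0.223% and 0.166%). The lowest adjusted p-values were 0.125, 0.449, 0.611 and 0.669. Palb2, which links Brca1 to Brca2 and is on MB alone, had 94.8, 136.7 and 86.5 in DM vector cells and 178.3, 236 and 240.2 in GM vector cells. These did not overlap, and the change missed the threshold (-0.96 ± 0.30, adjusted p = 0.0577). The other genes on MB alone did not pass either. In vector cells Rad54b, a relative of Rad54l, changed by -0.83 ± 0.50, the recombination gene Xrcc3 by 0.22 ± 0.32, the core subunit Fancb by -0.43 ± 0.62 and the helicase Brip1 by -0.64 ± 0.57.

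**Figure D4:**
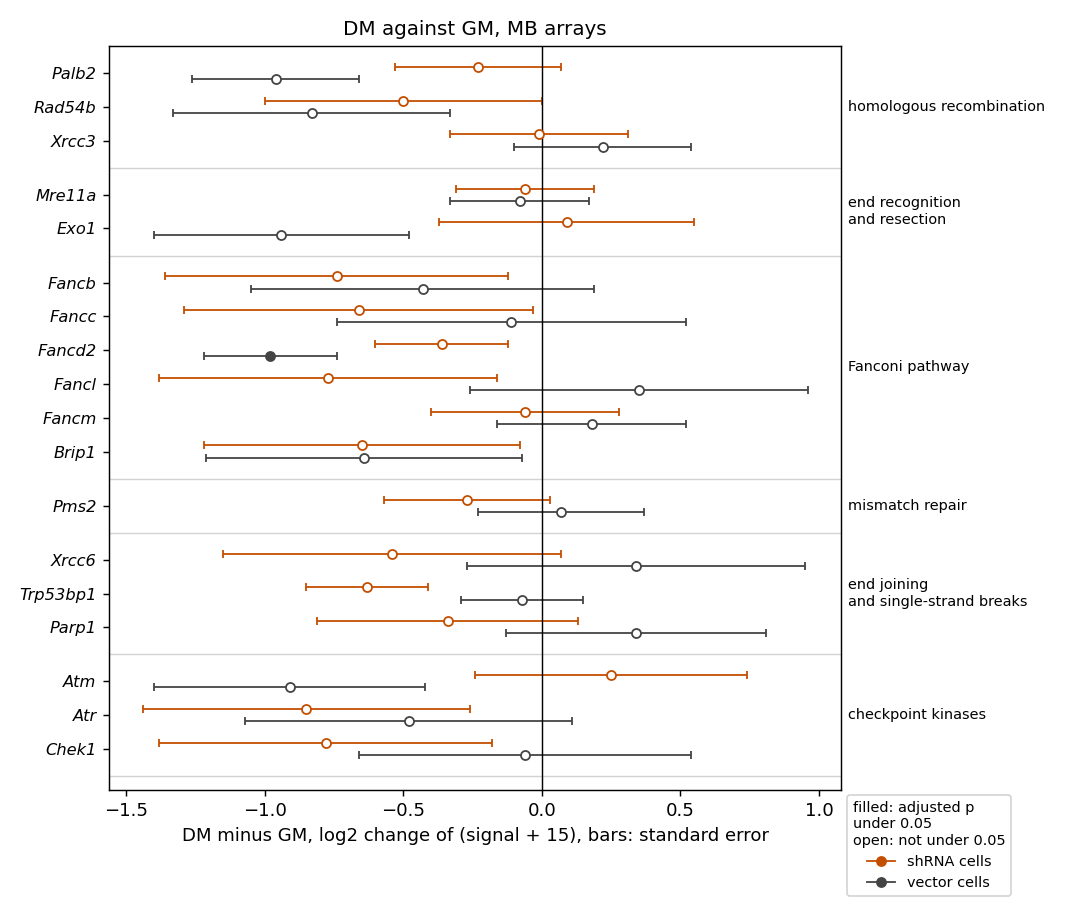
Change between DM and GM on MB for the 18 tested genes, as log2(signal + 15) in DM minus GM (horizontal axis), by pathway; bars are standard errors, shRNA cells stand above vector cells and filled points passed. Fancd2 in vector cells is the 1 filled point, and the bars are wider than on MA.

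For the genes on both designs the MB probe sets are other probes, scaled apart, and their agreement with MA was not tested. In vector cells Exo1 changed by -0.94 ± 0.46 between DM and GM on MB (adjusted p = 0.261), beside -1.51 ± 0.14 on MA. Mre11a (-0.08 ± 0.25), Pms2 (0.07 ± 0.30), Xrcc6 (0.34 ± 0.61) and Parp1 (0.34 ± 0.47) lay near or above 0 on MB without passing, although each was lower on MA. Atm (-0.91 ± 0.49), Atr (-0.48 ± 0.59), Fancc (-0.11 ± 0.63) and Fancl (0.35 ± 0.61) did not pass on either design in that comparison at their brightest probe sets. Chek1 (-0.06 ± 0.60) and the DNA translocase Fancm (0.18 ± 0.34) were tested on MB alone, and Rad54l, with signals of 7.1 to 34.9 over the MB arrays, on MA alone. The 4 MB probe sets of Trp53bp1 spread widely and none passed: the brightest changed by -0.07 ± 0.22 and the others by -0.07 ± 0.32, -1.33 ± 0.44 and 0.45 ± 0.54.

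Other repair genes, on lists drawn up for these and neighbouring pathways, are given on MA by their brightest tested probe sets. Their counts stand beside 25.4% lower and 23.9% higher of all tested probe sets between the media in vector cells, and 10.7% higher and 6.24% lower with the shRNA in DM. Of 22 further genes of recombination and the Fanconi pathway, 11 were lower and 1 was higher in DM in vector cells (median -0.53), and 3 were higher with the shRNA in DM. Rpa1, the subunit that coats single-stranded DNA, was the largest (-2.09 ± 0.10, adjusted p = 5.66e-10). It was also higher with the shRNA in DM (0.51 ± 0.10, adjusted p = 0.00329) and lower in GM (-0.47 ± 0.10, adjusted p = 0.014). The nuclease subunit Eme1 (-1.76 ± 0.24), the helicase Recql4 (-1.46 ± 0.21) and Rpa2 (-1.37 ± 0.17) were lower in DM in vector cells, and lower in shRNA cells too (-1.32, -0.71 and -0.92). None of these 3 passed between shRNA and vector in either medium. Of 16 further checkpoint genes 9 were lower and 4 higher in DM in vector cells (median -0.76), the higher ones at a share near that of all tested, and 4 were higher with the shRNA in DM. Timeless and Tipin, which protect stalled forks, were lower in DM (-2.22 ± 0.19 and -1.23 ± 0.15) and higher with the shRNA there (1.06 ± 0.19, adjusted p = 0.00116, and 0.47 ± 0.15, adjusted p = 0.0453). The histone gene H2ax, whose product is phosphorylated around breaks, was lower in DM (-2.06 ± 0.12), higher with the shRNA in DM (0.62 ± 0.12, adjusted p = 0.0024) and lower with it in GM (-0.52 ± 0.12, adjusted p = 0.0177). The phosphatase gene Cdc25c was lower in DM in vector cells (-1.79 ± 0.25) and did not pass between shRNA and vector in DM (0.76 ± 0.25, adjusted p = 0.0529).

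Base excision repair had 7 of 12 genes lower and 2 higher in DM in vector cells (median -0.44), and 3 higher with the shRNA in DM. Lig1, the ligase of replication and long-patch repair, changed most (-2.95 ± 0.13, adjusted p = 2.01e-10) and was higher with the shRNA in DM (1.19 ± 0.13, adjusted p = 2.73e-05). The glycosylase genes Ung (-1.75 ± 0.20) and Mutyh (-1.33 ± 0.30) were lower in DM, while the repair polymerase Polb was higher (1.13 ± 0.20, adjusted p = 0.000268). Of 6 further end joining genes 2 were higher and 1 lower in DM: the ligase partner Xrcc4 (1.01 ± 0.18) and the ligase Lig3 (0.42 ± 0.12) were higher, and the polymerase Poll was lower (-1.01 ± 0.18). Lig3 was the 1 of these 6 that passed with the shRNA in DM, where it was lower (-0.39 ± 0.12, adjusted p = 0.0401). Nucleotide excision repair had 4 of 14 genes lower and 1 higher in DM in vector cells (median 0.09), with the lower ones at a share near that of all tested. The lowest adjusted p of this list between shRNA and vector in DM was that of Xpa (0.173). Gtf2h4 (-1.20 ± 0.20), the nuclease subunit Ercc1 (-1.16 ± 0.15) and the helicase Ercc3 (-0.80 ± 0.19) were lower, and Xpa, which verifies damage, was higher (0.78 ± 0.20). Translesion synthesis had 1 of 6 genes higher, the ubiquitin-conjugating enzyme Ube2b (1.71 ± 0.27), and 1 lower, Mad2l2 (-0.57 ± 0.14). Ube2b was also higher with the shRNA in GM (1.09 ± 0.27, adjusted p = 0.0258).

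On MB, of 13 recombination and Fanconi genes 3 were lower in DM in vector cells, and of 9 checkpoint genes 3, beside 5% of all tested probe sets. Rad18, the ubiquitin ligase that starts translesion synthesis (-2.83 ± 0.38), the checkpoint mediator Clspn (-2.29 ± 0.23), the polymerase Polh (-1.91 ± 0.25) and the Atr activator Topbp1 (-1.90 ± 0.40) were lower. So were Wdr48, which serves the deubiquitinase of Fancd2 (-2.13 ± 0.46), the helicase Helq (adjusted p = 0.0331), Cdc25c (-1.81 ± 0.21) and Ercc1 (-1.08 ± 0.21). The glycosylase Neil1 was higher (1.43 ± 0.19, adjusted p = 2.91e-05). Pms1, a further mismatch repair gene, was lower in DM in vector cells (-1.70 ± 0.37, adjusted p = 0.0051) and higher with the shRNA in DM (1.77 ± 0.37, adjusted p = 0.0217). Gen1, a nuclease that cuts joined chromosomes apart, was likewise lower in DM (-1.61 ± 0.48, adjusted p = 0.042) and higher with the shRNA there (2.07 ± 0.48, adjusted p = 0.0405).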

How the data were processed

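The authors deposited 1 linear intensity per probe set and array; MAS5 is named in the submitters' processing notes, with no version. From the values, each array had been scaled to a mean of about 150 after trimming (150.1 on MA, 150 on MB); detection calls were not used here. Control probe sets (64 per design) were left out.

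Gene symbols came from GEO's platform tables (20380 MA and 14661 MB probe sets with 1 symbol), and 2 MB probe sets naming Rad54b with a second gene were left out. Members and gene lists were chosen with earlier results of these data known. Groups and replicate numbers came from the titles. The means of the 4 groups were fitted with limma 3.58.1 in R 4.3.3 to log2(intensity + 15) over the 12 arrays of each design (8 residual degrees of freedom). Variances were moderated along a trend with the mean, and p-values were adjusted by Benjamini-Hochberg over 14367 MA and 19303 MB probe sets. The MA and MB fits were separate. A gene was given by its brightest tested probe set. Signals of every array were given for the member of each pathway with the largest passing change between media in vector cells and between constructs in DM, and for every member passing in GM or in the interaction; the dimmer probe set of Fancc, Fancd2, Palb2, Fancl and others with array values outside this rule were chosen after their values were seen. Of each other list, up to 4 genes with the largest passing change between media in vector cells were named on MA, and likewise on MB. The fit was tested on simulated data, with changes placed only in probe sets brighter than many members. Changes as dim or as small as those of many members were not simulated. Alternatives were other pseudocounts (5 and 50), no filter, a filter at 60, quantile normalization, 2-group fits, a replicate block, array weights, no trend, and leaving out each array. The number of arrays limits the precision.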

Additional observations from a re-analysis of the deposited data

Results flagged for a closer look

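The effect of the p68 shRNA differed between DM and GM, by the interaction in limma, for 5 of 35 tested member probe sets on MA. All 5 were more positive in DM, against 5.48% of all tested in that direction. Without the filter 1 of 48 passed, that of Rad54l, against 2.79% of all probe sets. The difference, DM minus GM, was 1.14 for Rad54l (adjusted p = 0.017), 1.27 for the second Rad51ap1 probe set (adjusted p = 0.0353), 0.89 for Brca1 (adjusted p = 0.0398), 0.61 for Msh6 (adjusted p = 0.0392) and 0.68 for Xrcc1 (adjusted p = 0.0422). In Rad54l, Rad51ap1, Brca1 and Msh6 the shRNA arrays were higher than the vector arrays in DM and the change in GM did not pass. The other tested Brca1 probe set overlapped in DM and did not pass the interaction (-0.29, adjusted p = 0.625). In Xrcc1 the shRNA arrays overlapped the vector arrays in DM and lay below them in GM. The interaction calls were lost in 7 of 20 other settings for Rad51ap1, 12 of 19 for Brca1 and 12 of 20 for Msh6. For Xrcc1 the call was lost in 13 of 20, and for Rad54l in 0 of 20. Groups of 3 arrays were not tested for outlying arrays.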

How the results depend on the processing

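Of 44 passing changes of member probe sets on MA, 26 passed in every other setting in which the probe set was tested, and 0 reversed. The stricter filter left some of them untested. The 1 on MB, Fancd2, was lost in 3 of 21. On MA, the count lower in DM in vector cells was 15 to 22 when 1 array was left out (20 with all), and the count higher 0 to 1 (1 with all). That count of 1 was 0 in the fit of only the groups compared and with the replicate block. In shRNA cells the counts were 6 to 15 lower (11 with all; 7 without the filter) and 0 to 1 higher. That higher count was 1 with the stricter filter, quantile normalization, the 2-group fit and array weights. With the shRNA in DM, 4 to 11 were higher (7 with all; 4 in the 2-group fit, 13 with array weights), and 0 were lower in every one of these. In GM 0 to 1 were higher and 0 to 1 lower; the 2-group fit gave 1 higher and 1 lower, and array weights 2 higher and 1 lower. The interaction gave 1 to 8 (5 with all; 3 at a pseudocount of 50, 1 without the filter, 3 with the replicate block), and a 2-group fit cannot give it. On MB 0 to 3 were lower in DM in vector cells (1 with all; 2 with the stricter filter and with quantile normalization), and the other counts stayed at 0. The labels do not state whether same-numbered arrays share a culture or batch. Correlations of their deviations were -0.139 to 0.293 on MA and -0.0391 to 0.0284 on MB. Those of pairs with other numbers were -0.277 to 0.195 on MA and -0.0638 to 0.0741 on MB. The replicate block moved no other count by over 1.5 times. The cause of these differences was not tested. Low signals limit Brca1 and Rad54l in the DM vector arrays (10.7 to 23.2), near or under the added 15. They also limit the second Rad51ap1 probe set there (4.2 to 24), whose interaction was 0.72 to 1.71 over the other settings.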
